A study of Mus musculus with 3 samples.

Results

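The Notch receptors, ligands, DNA-binding factor and targets of the mouse genital tubercle, the outgrowth that becomes the penis or the clitoris, were followed through 10 genes: Notch1, Notch2, Notch3, Dll1, Jag1, Jag2, Hes1, Hey1, Heyl and Rbpj. Their members are the 20 probe sets annotated to exactly 1 of these symbols, out of 45037 probe sets that are not controls, which represent 18193 genes. RNA came from the tubercle region of 3 embryos, with 1 array per embryo, at embryonic day 14 (Theiler stage 22). The mothers were of the FVB/N strain and the fathers carried a SMAA/EYFP transgene, a fluorescent reporter named for smooth muscle actin (Acta2) that guided the dissection. The labels call every embryo male, transgenic and not pooled, and give no treatment, no untreated group and no second genotype. They differ in the landmark alone: the digits of the footplate were only outlined in replicates 1 and 2, and separate fingers could be seen in replicate 3.

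Notch signalling passes between touching cells. A Delta or Jagged ligand on one cell binds a Notch receptor on its neighbour, the receptor is cleaved in turn by an ADAM protease and by γ-secretase, and its intracellular domain enters the nucleus and joins Rbpj, the DNA-binding protein of the pathway, to switch on Hes and Hey genes, which encode bHLH repressors. In embryos the pathway is known for its roles in blood vessels, in vascular smooth muscle and in layered epithelia, all of which the tubercle contains.

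Signals are the deposited array intensities, and a probe set was counted above background where its signal passed the level that 95% of 81 sensory receptor probe sets (smell, pheromone and bitter taste) stayed under in the same sample (135.8, 253.1 and 197.5 in replicates 1, 2 and 3). Differences, folds and SDs of log2 values were taken after the samples had been aligned on a common median. Replicate 3 went against its male label: Xist, the RNA that coats the inactive X chromosome, read 8.05, 118 and 61883 in replicates 1, 2 and 3, and the Y-linked gene Eif2s3y 4384, 3738 and 37.9. Results that rest on replicate 3 are therefore given with the values of the other samples beside them. Replicate 1 stood apart in the 5′ control probe set of β-actin, which read 3262 there against 28990.3 and 9118 in replicates 2 and 3, with 3′ to 5′ ratios of 7.38, 2.21 and 4.42. The 5′ control of 18S rRNA was also lowest in replicate 1 (11133, 70236 and 42009; ratios 1.22, 1.12 and 1.44), whereas that of Gapdh was highest there (983, 749 and 901; ratios 21.5, 14.9 and 14.1). Of the marker lists for the labelled tissue, 10 of 10 mesenchyme genes and 10 of 10 epithelial genes were above background in 3 of 3 samples, as were 8 of 10 endothelial genes and 6 of 10 genes of pericytes and vascular smooth muscle. In whole tissue, fewer cells of a type and less RNA per cell cannot be told apart.

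All 10 genes were above background in 3 of 3 samples on their main probe set, the one with the highest mean signal. This held for 60.5% of all genes measured. The members were chosen with earlier results of these data known, so the count describes them and tests nothing. Of the 20 probe sets, 17 were above background in 3 of 3 samples, against 48.0% of all probe sets. The other 3 were a Notch2 probe set above it in 2 samples, a Notch3 probe set above it in 1 and a Heyl probe set above it in none. Probe sets bind with different strength, so levels are compared between samples and not between genes.

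**Figure D1:**
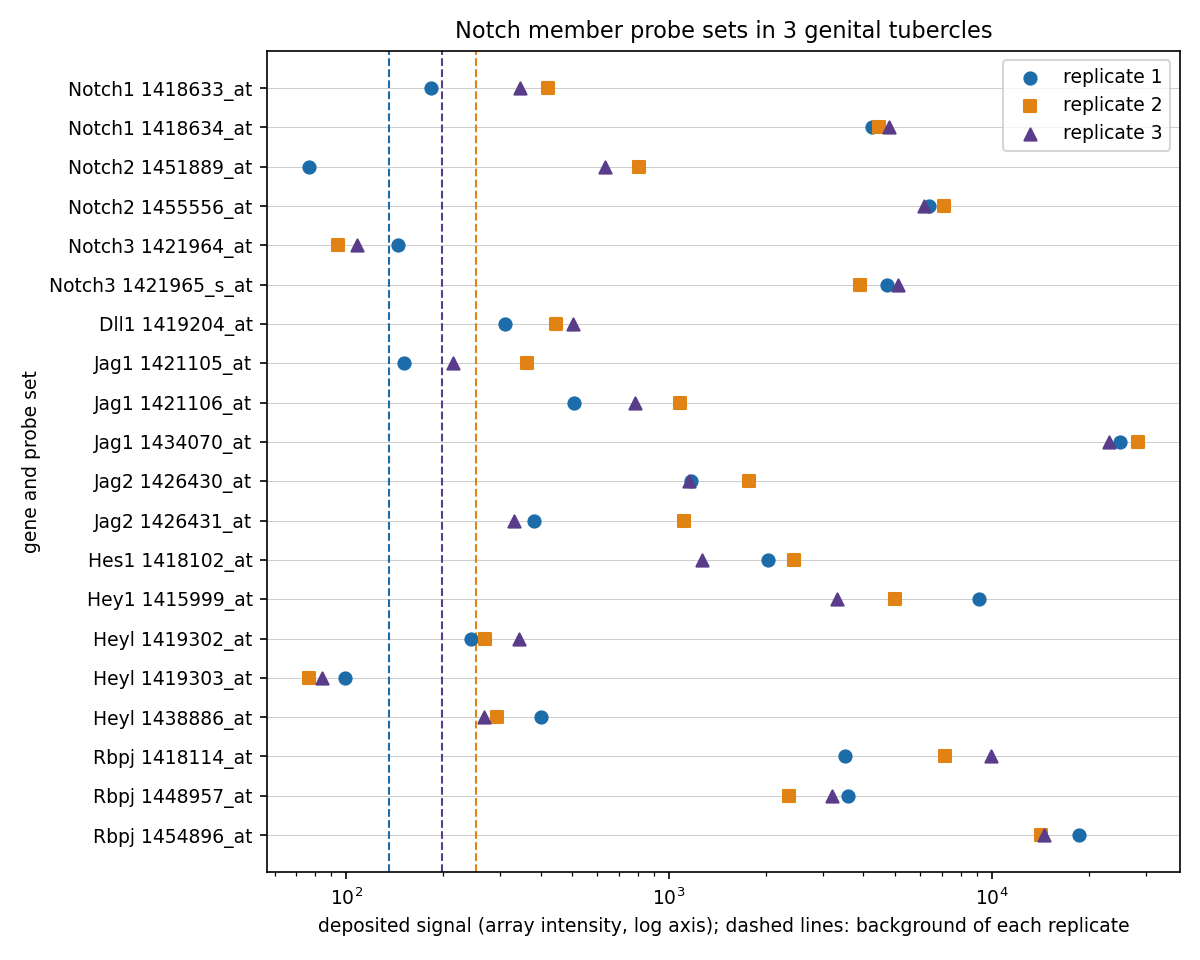
Deposited signal (array intensity, log axis) of each of the 20 member probe sets, with 1 marker per replicate and dashed lines at the background of replicates 1, 2 and 3 (135.8, 253.1 and 197.5). The 3 markers lie close together for Notch1 1418634_at and Notch2 1455556_at, and apart for Hey1, for Jag2 1426431_at and for Notch2 1451889_at, where replicate 1 (76.5) is left of its background line.

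The main probe sets of the receptors Notch1, Notch2 and Notch3 had SDs of 0.12, 0.07 and 0.30 on the log2 scale, or 0.32, 0.29 and 0.51 with alignment on the overall median. Notch1, the receptor best known from T cells, skin and arteries, read 4266, 4488 and 4819.6 in replicates 1, 2 and 3, a mean of 4524 ± 279 (SD, n = 3). Its samples lay within 1.18-fold of each other after alignment. Notch2, a broadly expressed receptor, read 6376, 7116 and 6148 (6547 ± 506, SD, n = 3), and the largest aligned fold between samples was 1.10. Its SD of 0.07 was smaller than that of all but 2.90% of probe sets above background in 3 of 3 samples. Notch3, the receptor of vascular smooth muscle and pericytes, read 4740.5, 3899 and 5117 (4586 ± 623, SD, n = 3), lowest in replicate 2 and within 1.45-fold across samples. The pericyte and vascular smooth muscle list, whose summed signal was 19757, 18094 and 15525 in replicates 1, 2 and 3, did not have this order, and Kcnj8 and Cnn1 of that list were above background in no sample.

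The second probe set of each receptor was dim. For Notch1 it (1418633_at) read 183, 420.7 and 346, above background in every sample and lowest in replicate 1. For Notch2 it (1451889_at) read 76.5, 809.6 and 634. Replicate 1 was not above background there, and replicates 2 and 3 were at least 5.09-fold and at least 4.40-fold higher. The bound is set against the background of replicate 1. In that sample the 3′ to 5′ ratios of the β-actin (7.38) and Gapdh (21.5) controls were the highest of any sample. The ratio of 18S rRNA (1.22) was not, and the part of RNA quality in the difference was not tested. The second Notch3 probe set, at 144, 94.3 and 108, passed background in replicate 1 and in no other sample.

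All 6 ligand probe sets were above background in 3 of 3 samples. Jag1, the Jagged ligand of developing vessels and epithelia, had a main probe set at 24903, 28427 and 22999 (25443 ± 2754, SD, n = 3), with all samples within 1.15-fold after alignment. Its other probe sets read 507, 1085 and 786, and 151, 364 and 215, and were lowest in replicate 1, by 1.83-fold and 2.06-fold against replicate 2. Jag2, a Jagged ligand of stratified epithelium, read 1169.7, 1773 and 1155 (1366 ± 353, SD, n = 3), with replicates 1 and 3 close together and replicate 2 1.39-fold above replicate 3. The second Jag2 probe set read 382, 1111 and 330.1, and set replicate 2 above replicates 1 and 3 by 2.49-fold and 3.05-fold. Replicate 2 was thus the highest sample on both Jag2 probe sets, although the main one put replicate 1 above it by 0.10 on the log2 scale when samples were aligned on the median of all probe sets. Dll1, a Delta ligand, was measured by 1 probe set at 311, 448 and 504 (421 ± 99.3, SD, n = 3), between 1.77 and 2.55 times the background of its sample. Replicate 1 was the lowest, 1.53-fold below replicate 3. Replicate 2 became the lowest with alignment on the overall median and after quantile normalization, by 0.18 and 0.11 against replicate 1 on the log2 scale.

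Rbpj, on which all receptors converge, had replicate 1 highest on 2 probe sets and lowest on the remaining one. The main one read 18659, 14237 and 14529.6 in replicates 1, 2 and 3 (15808 ± 2473, SD, n = 3), highest in replicate 1 by 1.53-fold over replicate 2. A second one read 3588, 2347 and 3194 and was also highest in replicate 1. Probe set 1418114_at read 3517, 7143 and 9930.1, lowest in replicate 1, where it was 2.66-fold below replicate 3. The log2 difference of replicate 1 from replicate 3 was 0.45 and 0.26 on the former probe sets and -1.41 on 1418114_at. Each of these signs held under every alignment, normalization and floor tried. Replicate 2 minus replicate 3 had 1 sign on the 3 probe sets (-0.62 to -0.17), which turned on the main one after quantile normalization (0.07). The 3 probe sets were far above background in every sample, at no less than 9.27 times its level.

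RefSeq promoter windows (GRCm38.p6) were matched for 7 of the 10 members, in 9 windows, of which the 250 bases before each start were searched. Hes1, Hey1 and Heyl were not used here. TGGGAA, the core of the site that Rbpj binds, was searched on both strands together with CACGTG and CACGCG, sequences bound by Hes and Hey repressors. Rbpj is shown because it was the 1 gene of the 7 with TGGGAA, and Jag1 because it had CACGCG on each strand; both were chosen after the search. Capitals mark the matches, including the reverse complements TTCCCA and CGCGTG. The Rbpj sequence is chr5:53590096-53590345 on the plus strand and the Jag1 sequence chr2:137116521-137116770 on the minus strand.
Rbpj: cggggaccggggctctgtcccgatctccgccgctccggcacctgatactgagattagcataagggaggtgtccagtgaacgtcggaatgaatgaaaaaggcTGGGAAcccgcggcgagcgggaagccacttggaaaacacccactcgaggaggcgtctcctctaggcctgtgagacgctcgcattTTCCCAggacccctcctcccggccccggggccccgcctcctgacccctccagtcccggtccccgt
Jag1: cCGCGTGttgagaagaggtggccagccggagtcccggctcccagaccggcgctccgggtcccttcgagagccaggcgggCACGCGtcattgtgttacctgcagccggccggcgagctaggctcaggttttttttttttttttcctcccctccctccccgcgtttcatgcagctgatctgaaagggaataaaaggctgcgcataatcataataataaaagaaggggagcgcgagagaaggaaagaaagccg
In Rbpj the matches begin 149 and 65 bases before the start, and the second of them also lies in the window of a later Rbpj start. In Jag1 they begin 249 and 171 bases before the start. Windows of Notch2 and Dll1 held CACGCG once each, and no window of the 7 genes held CACGTG. Of 32851 windows in the table, 21.6% held TGGGAA, 7.62% CACGCG and 6.02% CACGTG on either strand. A match describes these letters and is not a measured site.

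Of the 10 main probe sets that of the target Hey1 had the highest SD under every alignment and normalization tried. Hes1 and Heyl came next, although Dll1 and Jag2 passed Heyl without alignment and Rbpj passed Hes1 with alignment on the overall median. Hey1, a bHLH repressor of endothelium and mesenchyme, read 9129.6, 5009 and 3304 in replicates 1, 2 and 3 (5814 ± 2995, SD, n = 3). Replicate 1 was the highest, 2.13-fold over replicate 2 and 2.94-fold over replicate 3. Its SD of 0.80 on the log2 scale exceeded that of 89.1% of probe sets above background in 3 of 3 samples. Hes1, the bHLH repressor that keeps progenitor cells from differentiating, read 2028, 2438 and 1267 (1911 ± 594, SD, n = 3). Replicates 1 and 2 were within 1.03-fold, and replicate 3 lay 1.70-fold and 1.75-fold below them. Without replicate 3 the SD of Hes1 fell from 0.45 to 0.03 in this alignment, whereas that of Hey1 was 0.80 with it and 0.77 without it. The closeness of replicates 1 and 2 in Hes1 depended on the scaling. Their log2 difference of -0.04 was -0.27 without alignment, -0.16 after quantile normalization and 0.44 with alignment on the overall median. Heyl, a target of Notch3 in vascular smooth muscle, read 402, 292 and 267 (320.6 ± 72.0, SD, n = 3), with replicate 1 1.61-fold and 1.60-fold above replicates 2 and 3. A second Heyl probe set at 243, 269 and 342 had replicate 3 highest, and the remaining one, at 98.8, 76.8 and 83.8, was above background in no sample. No Heyl signal exceeded 2.96 times background.

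The levels of several cell type lists differed between samples in the order of Hey1, and those of others did not. Of the epithelial list 10 of 10 genes were highest in replicate 1, against 55.5% of all genes. Across the alignments and normalizations tried this was 7 to 10 of the list and 41.9% to 80.6% of all genes. The summed deposited signal of the list was 127992, 110288 and 95585 in replicates 1, 2 and 3. Liver genes summed to 116034, 52559 and 9266 and skeletal muscle genes to 24824, 6604 and 2919, in the order of Hey1, with 4 of 8 genes of each list above background in 3 of 3 samples and Myf5 above it in none. The pericyte and vascular smooth muscle sums of deposited signals, given above, also fell in this order, but the genes of that list followed the scaling. Of its 6 genes above background in 3 of 3 samples, 4 were highest in replicate 1 (55.5% of all genes). Without alignment 3 of 6 were highest in replicate 2 (31.6%). With alignment on the overall median 4 of 6 were lowest in replicate 2 (67.8%). Of 5 erythroid genes above background in 3 of 3 samples 4 were highest in replicate 1 and 4 lowest in replicate 3. The deposited signals of the erythroid list, led by Hbb-y, had their highest sum in replicate 2 (85835, 96895 and 80944.5). With alignment that sum too falls in the order of Hey1, although Hbb-y itself stays highest in replicate 2. The endothelial list had 5 of 8 genes above background highest in replicate 3, against 25.3% of all genes. After alignment 5 of 8 were lowest in replicate 2 and 2 in replicate 1. Its sums of deposited signals were 13100, 13914 and 16060.0, but alignment makes replicate 2 the lowest. The mesenchyme list had 5 of 10 genes highest in replicate 3. After alignment 6 of 10 were lowest in replicate 2, against 51.4% of all genes, and 2 in replicate 1. With alignment on the overall median 0 of 10 were highest in replicate 3 and 9 in replicate 1, against 80.6% of all genes. The mesenchyme sum of deposited signals was lowest in replicate 1 (239216, 251543 and 255718), but alignment makes replicate 2 the lowest. The part of these tissues in the Hey1 values was not tested.

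Counted over the main probe sets, 5 of 10 members were highest in replicate 1, against 55.5% of all genes above background in 3 of 3 samples, 2 in replicate 2 (19.2%) and 3 in replicate 3 (25.3%). Lowest values fell in replicate 3 for 5 members (30.4% of all genes), in replicate 2 for 4 (51.4%) and in replicate 1 for 1 (18.2%). The share highest in replicate 1 was near that of all genes and followed the scaling: 3 of 10 members without alignment (41.9% of all genes), 3 after quantile normalization (49.4%) and 9 with alignment on the overall median (80.6%). That alignment moved the median difference of replicate 1 from the others over all genes from 0.26 to 0.66 on the log2 scale. Differences over 2-fold were found in 1 of 10 members between replicates 1 and 2 (12.3% of all genes), in 1 of 10 between replicates 1 and 3 (7.62%) and in 0 of 10 between replicates 2 and 3 (7.24%). The gene was Hey1 in both cases in this alignment. With alignment on the overall median Heyl and Rbpj passed 2-fold too between replicates 1 and 2 (log2 differences 1.17 and 1.09). Between replicates 1 and 3 Hes1 and Heyl did so as well (1.09 and 1.003). After quantile normalization Heyl passed 2-fold between replicates 1 and 2 (1.09). Over the 17 member probe sets above background in 3 of 3 samples the counts were 3 (20.2% of all such probe sets), 2 (13.7%) and 1 (9.85%). Against replicate 2 the log2 difference of replicate 1 in Hey1 (1.09) was 0.87 without alignment and 0.77 after quantile normalization, each under 2-fold. Against replicate 3 Hey1 passed 2-fold under every setting.

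Where a gene had several probe sets above background in 3 of 3 samples, they often differed in sign. This applied to 5 members, namely Notch1, Jag1, Jag2, Heyl and Rbpj. Between replicates 1 and 2 the sign differed within 3 of the 5 (Notch1, Jag1 and Rbpj), against 57.8% of all genes with several such probe sets. Between replicates 1 and 3 it differed within 3 (Jag1, Heyl and Rbpj; 54.1%) and between replicates 2 and 3 within 1 (Notch1; 53.1%). The differences of the main Notch1 and Jag1 probe sets between replicates 1 and 2 (0.15 and 0.04) turned negative without alignment and after quantile normalization. In this alignment Jag2 was the 1 gene of the 5 whose probe sets kept 1 sign in each pair of samples. With alignment on the overall median its probe sets too differed in sign between replicates 1 and 2 (0.10 and -0.84).

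**Figure D2:**
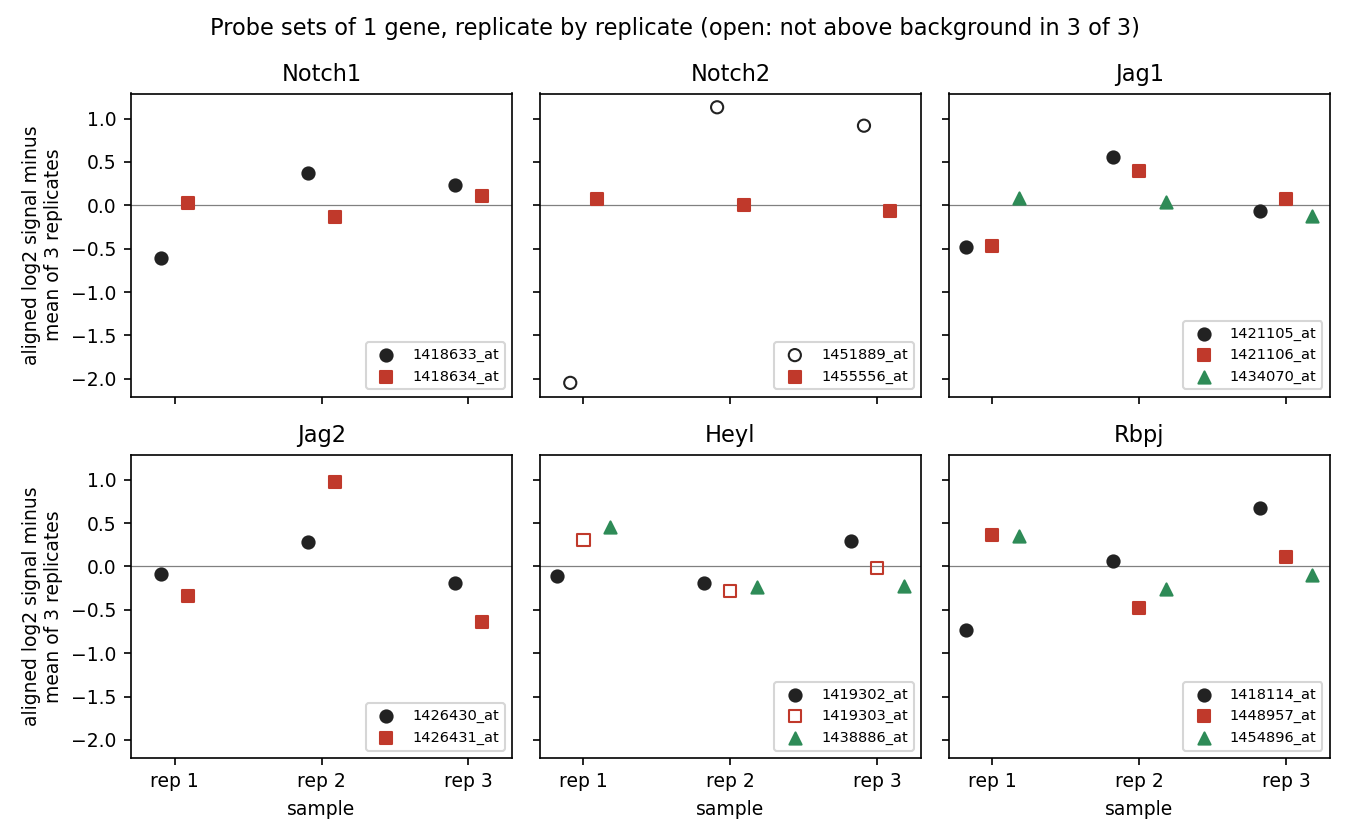
Aligned log2 signal of each probe set minus its mean over 3 replicates, for 6 members with several probe sets; open markers are probe sets not above background in 3 of 3 samples. Rbpj 1418114_at is low in replicate 1, where the other Rbpj probe sets are high, and Notch2 1451889_at is low in replicate 1 (76.5, not above background) while Notch2 1455556_at stays near 0.

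The landmark contrast asked whether the embryo with visible fingers, replicate 3, differed from replicates 1 and 2. No member was called. Hey1 was lower in replicate 3 by a log2 difference of -1.01 ± 0.76 (SE) and Hes1 by -0.79 ± 0.60, with Benjamini-Hochberg adjusted p of 0.9999 for each from limma. For Hey1 the difference was -1.55 against replicate 1 alone and -0.46 against replicate 2 alone. Dll1 had 0.46 ± 0.61, Notch3 0.28 ± 0.64 and Notch1 0.17 ± 0.60, while Notch2 (-0.11), Rbpj (-0.14), Jag1 (-0.18), Jag2 (-0.29) and Heyl (-0.33) had negative values, all on their main probe sets. Rbpj 1418114_at had 1.01 ± 0.69. Of 19 member probe sets tested, 0 passed the adjusted threshold of 0.05, against 0.00% of 29065 probe sets tested, and 0 had an unadjusted p under 0.05, against 2.08%. This fit rests on 1 residual degree of freedom and on the assumption that replicate 3 has the same variance as the rest, and landmark, sex and any other feature of replicate 3 cannot be told apart.

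**Figure D3:**
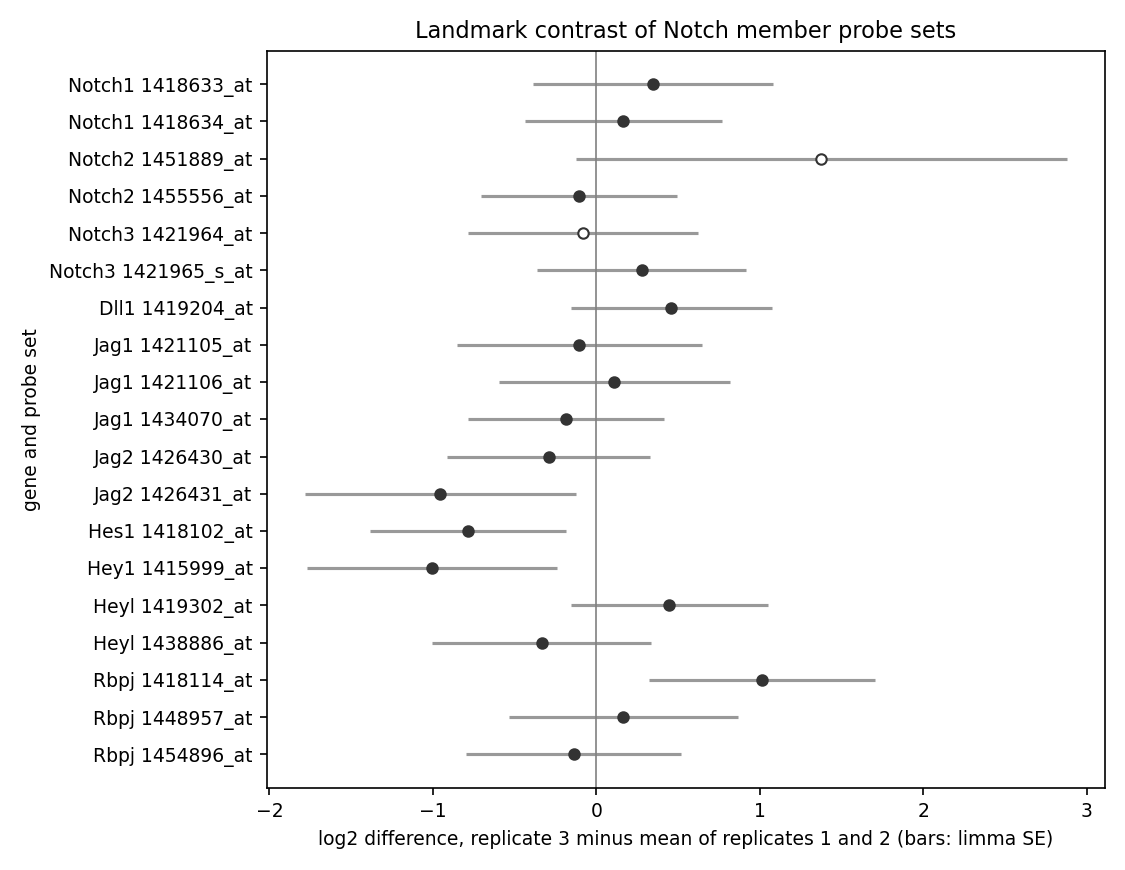
Log2 difference of replicate 3 from the mean of replicates 1 and 2 for the 19 member probe sets tested, with bars of 1 limma SE. Hey1 (-1.01) and Hes1 (-0.79) lie lowest together with the second Jag2 probe set (-0.95); open markers are probe sets not above background in 3 of 3 samples, whose differences rest in part on signals that were not measured above it.

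With each other sample set alone against the rest, limma again called 0 of 19 member probe sets (0.00% of all probe sets in each fit). In replicate 1 the dim Notch2 probe set, not above background in that sample and so known only by the bounds given above, had an adjusted p of 0.167 from limma and was the 1 member with an unadjusted p under 0.05, against 11.4% of all probe sets. A mean-variance trend in the limma fit gave it an adjusted p of 0.0253, and the other settings that tested it between 0.134 and 0.406. Its main probe set had 0.10 ± 0.47 in the same contrast. Hey1 was higher in replicate 1 by 1.32 ± 0.51 (limma, adjusted p = 0.446). In replicate 2 the second Jag2 probe set was higher by 1.46 ± 0.47 (limma, adjusted p = 0.870), the 1 member with an unadjusted p under 0.05 there, against 5.05% of all probe sets. The main Jag2 probe set had 0.43 ± 0.45.

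The spread between embryos of the 10 members was near that of other genes. Their median SD of aligned log2 signal was 0.303, against 0.330 for all genes above background in 3 of 3 samples, and 7 of 10 lay below that median, as 50.0% of genes do by construction. Notch2, Jag1 and Notch1 had the lowest SDs (0.07, 0.11 and 0.12) and Hey1, Hes1 and Heyl the highest in this alignment (0.80, 0.45 and 0.39). Jag2 (0.25), Notch3 (0.30), Dll1 (0.30) and Rbpj (0.32) lay between. Without replicate 3 the members' median SD was 0.238 against 0.326 for all genes. These SDs are of the main probe sets. Over the 17 member probe sets above background in 3 of 3 samples the median SD was 0.395, against 0.364 for all such probe sets. Of the 17, 8 lay below that median.

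**Figure D4:**
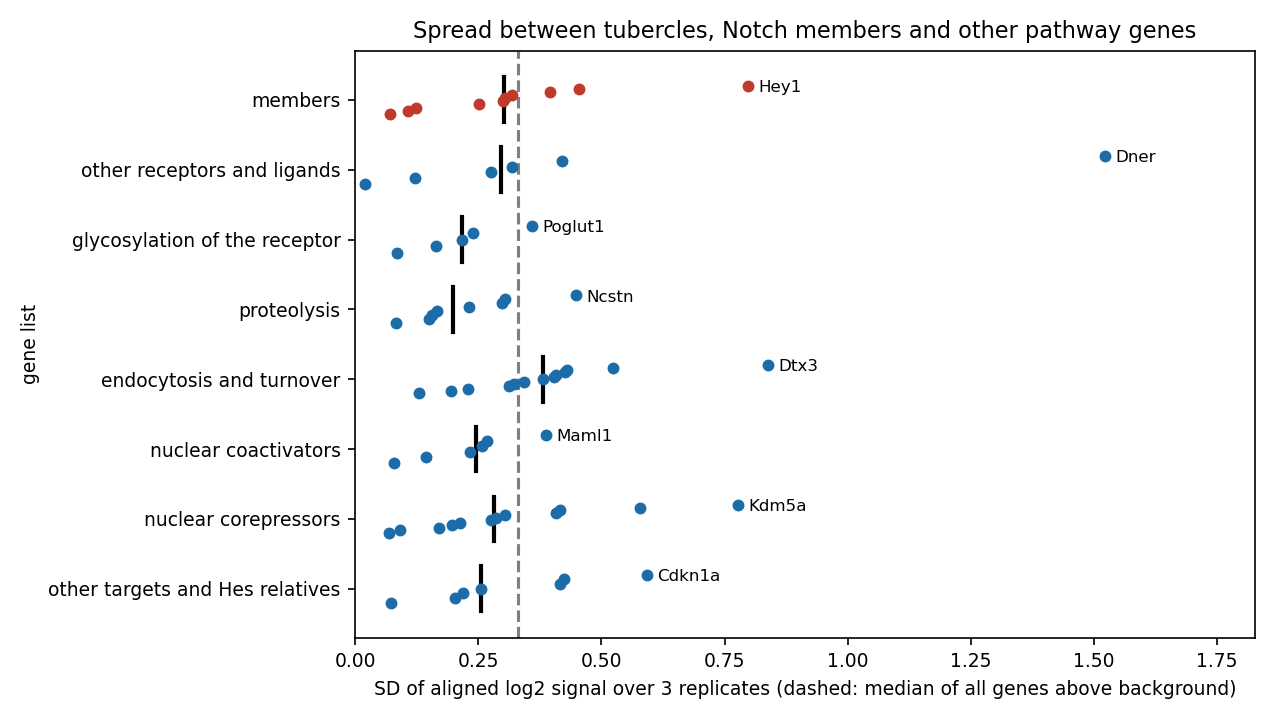
SD of aligned log2 signal over 3 replicates for each member and for 57 other Notch pathway genes above background in 3 of 3 samples, by role; black bars are list medians and the dashed line is the median of all genes (0.330). Hey1 (0.80) has the highest SD among the members and Dner (1.52) among the other pathway genes.

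A list of 72 other genes of the pathway, also chosen with earlier results of these data known, put these values in context. Of these, 67 had a probe set, and 57 of the 67 were above background in 3 of 3 samples, against 60.5% of all genes; 5 were above it in 1 or 2 samples and 5 in none. Their median SD was 0.276. By role, all 3 samples passed background for 8 of 8 genes of proteolysis measured, for endocytosis and turnover 13 of 14, for nuclear corepressors 12 of 13, nuclear coactivators 6 of 7, the glycosyltransferases that modify the receptor 5 of 6, other receptors and ligands 6 of 8 and other targets and Hes relatives 7 of 11. The limma fits of 1 sample against the others rest on 1 residual degree of freedom. The landmark contrast did not call even Eif2s3y (4384, 3738 and 37.9 in replicates 1, 2 and 3). These fits therefore cannot decide whether any of the pathway genes differed.

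Among other receptors and ligands, Dner, a Notch ligand of neurons, had the highest SD (1.52). It read 252, 481 and 2023 in replicates 1, 2 and 3, so that replicate 3 was 7.55-fold and 4.64-fold above replicates 1 and 2. Its second probe set, looked up after this was seen, read 193, 273 and 1506, with replicate 3 7.35-fold and 6.07-fold higher. Of the 7 nerve and glia genes measured, 3 were also highest in replicate 3: Elavl3 (29.4, 209.9 and 505), above background in that sample alone, and Nefm (240.3, 135.5 and 441) and Sox10 (155, 228 and 266), above it in replicates 1 and 3. The 4 genes above background in 3 of 3 samples were highest in replicate 1 or 2 (1 in replicate 3 with alignment on the overall median), and the list summed to 12075, 8364 and 9192. The part of nerve in the Dner values was not tested. Dlk2, a Delta-like protein that lacks the receptor-activating domain, varied least (735, 845 and 761, SD 0.02). Dll3, a Delta family member of the somites, was above background in no sample (83.2, 115.5 and 121).

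In receptor processing, Poglut1, which adds O-glucose to Notch, read 7677, 5546 and 7106 and had the highest SD of its role (0.36), and Mfng, a Fringe glycosyltransferase, the lowest (465, 497 and 505, SD 0.09). Of the γ-secretase subunits, Ncstn (208, 320.3 and 411, SD 0.45) varied most among proteolysis genes and Aph1b (812, 881 and 895, SD 0.08) least. Among genes of endocytosis and turnover, Dtx3, a Deltex-type ubiquitin ligase, read 3636, 1354 and 2579 (SD 0.84), and the ubiquitin ligase Itch 7356, 7282 and 7599 (SD 0.13). That role had 10 of 13 genes lowest in replicate 2, against 51.4% of all genes.

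In the nucleus, Maml1, the Mastermind coactivator that binds Notch and Rbpj together, read 7842, 5365 and 6228 (SD 0.39) and the acetyltransferase gene Kat2a 1176, 1279 and 1122 (SD 0.08). Of the corepressors, the histone demethylase gene Kdm5a read 3149, 10839 and 5723 (SD 0.78) and Ctbp1 38874, 41393 and 39175 (SD 0.07). Among other targets, the cell cycle inhibitor gene Cdkn1a read 1939, 1063 and 1071 (SD 0.59) and Ccnd1, which encodes cyclin D1, 9853, 11551 and 11439 (SD 0.07). Hes2, Hes3, Hes5 and Hes7 were above background in no sample; Hes5, a Notch target of the nervous system, read 85.4, 61.0 and 86.4 and Hes7, of the somite clock, 106, 179 and 37.7.

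Among the members Hes1 and Hey1 were lowest in replicate 3, while the main Heyl probe set differed by 0.01 between replicates 2 and 3 and a second one was highest in replicate 3. Of the 7 other targets and Hes relatives above background in 3 of 3 samples, 4 were lowest in replicate 3 (30.4% of all genes). This was 4 or 5 of 7 under each alignment and normalization tried. Over the 7, the median log2 difference of replicate 3 from the mean of the others was -0.40, against -0.01 for all genes. No probe set was called in this contrast. The 4 were Nrarp, a feedback inhibitor that Notch induces (8386, 9667 and 6934), Hey2 (783, 911 and 609.6), Gata3 (4854, 6636 and 3444) and Myc (2145, 1804 and 1269). Of the other 3, Hes6 (2018, 1785 and 1689) and Cdkn1a were lowest in replicate 2 after alignment and Ccnd1 in replicate 1. Gata3 and Myc have many regulators besides Notch, the epithelial list was also lowest in replicate 3 for 6 of 10 genes, and the part of tissue composition in these values was not tested.

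The 5 genes above background in 1 or 2 samples, named after their values were seen, were Dll4, Lfng, Neurl1b, Maml2 and Spen. Dll4, the Delta ligand of arteries and sprouting vessels, read 148, 209 and 234 and passed in replicates 1 and 3. Lfng, a Fringe glycosyltransferase, read 142, 178 and 47.9 and passed in replicate 1, where background was lowest. Neurl1b (276, 281 and 114), a ubiquitin ligase gene, passed in replicates 1 and 2, the corepressor gene Spen (94.6, 319.8 and 244) in replicates 2 and 3, and Maml2 (16.0, 485 and 40.9) in replicate 2 alone.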

How the data were processed

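The values deposited by the authors are linear intensities made with GCOS, as the submitters' processing notes name it; its algorithm and settings and the genome build were not given in the sources used. A trimmed mean near 1500 in each column shows a global scaling before deposit. The 45101 probe sets include 64 controls, which were left out, and 34945 had exactly 1 gene symbol in the platform annotation. Signals below 1 were set to 1, log2 transformed and aligned on the median of probe sets above background in 3 of 3 samples, which differed by 0.23 at most. RNA had been amplified in 2 rounds, per the labels. The contrasts used limma 3.58.1 (R 4.3.3) over the 29065 probe sets that passed background in some sample, two-sided with Benjamini-Hochberg adjustment. On simulated data with 1 SD shared by all probe sets, only the recovery of known log2 differences was required, not any rate of calls. The probe set with the highest mean signal stood for its gene. Every member was to be named, and of the other pathway genes, for each role, those with the highest and lowest SD and those above background in no sample. No genes were chosen for likeness to a member, since there are 3 samples. Beyond this rule, the 7 other targets and Hes relatives above background in 3 of 3 samples are all given, after their values were seen. Members and lists were chosen with earlier results of these data known. The marker lists covered endothelium, pericyte and vascular smooth muscle, epithelium, skeletal muscle, liver, erythroid cells, nerve and glia, and mesenchyme; erythroid genes had 5 of 6 measured above background in 3 of 3 samples. Embryos were not pooled, but nothing says whether they shared a litter. Their number limits the precision of every value.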

Additional observations from a re-analysis of the deposited data

How the results depend on the processing

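The 10 members stayed above background in 3 of 3 samples with background at the 90th percentile, with any probe set counted and without any 1 replicate, and 9 did at the 99th percentile, where Heyl (292 in replicate 2) was lost. The members' probe sets numbered 14 to 18 and the other pathway genes 55 to 58. The members' median SD was 0.264 without alignment, 0.412 when aligned on the overall median, 0.223 after quantile normalization and 0.195 to 0.238 without 1 replicate; under these 5 to 7 of 10 lay below the median of all genes, which moved in the same direction. With the median over a gene's probe sets it was 0.372. Of 51 differences between samples in member probe sets above background in 3 of 3, 13 changed sign under some alignment or normalization, none larger than 0.37 on the log2 scale. Member calls stayed at 0 except for 1, Notch2 1451889_at in replicate 1 with a variance trend, which rests on a signal not above background in that sample. Calls over all probe sets, 0 as reported, were 1 for the landmark contrast when the fit was kept to those that passed background in 3 of 3 samples and 86 when aligned on the overall median. For replicate 1 they were 511 and 144, and 557 with a variance trend, and for replicate 2 251 with that alignment. The cause was not tested. With 1 sample left out no test remains. No paired analysis was possible because the labels give 1 group.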
